A study of Rattus norvegicus with 6 samples.

Results

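The expression of 10 endothelial genes was followed through mRNA-seq of rat atrial fibroblast cultures in which GPD1L was targeted by siRNA. The members were the 10 rows of the deposited gene table, out of 40154 genes, whose symbol was Plvap, Cdh5, Pecam1, Kdr, Flt1, Tek, Tie1, Cldn5, Emcn or Vwf. They were chosen by name, with earlier results of these data known. Atrial fibroblasts came from Sprague-Dawley rats 1 to 3 days old, and were separated from myocytes by letting non-myocytes adhere for 1.5 h and then grown in medium with 10% fetal bovine serum. They received the control siRNA (si-NC) or the siRNA against GPD1L (si-GPD1L), and RNA was taken 24 h after transfection, with 3 libraries in each group. All 6 samples carry the same treatment entry, atrial differentiation, which the labels do not explain. The labels do not say whether the libraries came from separate cultures or animals, or whether the digit in the si-GPD1L names counts replicates or siRNAs, so the p-values measure only the spread between these libraries.

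Endothelial cells line the inside of blood vessels and of the heart chambers, and hold together through adherens junctions built on VE-cadherin and through tight junctions. They sense vascular endothelial growth factors through the receptors Kdr and Flt1 and angiopoietins through Tek, with Tie1 as its orphan partner. Heart tissue is rich in capillaries, and a culture that selects cells by early adhesion to plastic can carry endothelial cells along with the fibroblasts. Not all of these genes are restricted to endothelium, since Pecam1 and Vwf are also made in the platelet lineage and Flt1 and Tek are found in some other cell types.

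Library totals ran from 16892255 to 20149732 counts, and the scaling factors of the trimmed mean of M values (TMM) lay between 0.994 and 1.01. Normalized counts below are counts brought to a common library size, the mean of the 6. Gpd1l, the targeted gene, had 262, 332.3 and 313.3 normalized counts in the si-NC replicates and 220.3, 208.1 and 302.5 in the si-GPD1L libraries. The value in si-GPD1L replicate 3 lay within the si-NC range, and the change of Gpd1l did not pass the test (log2 fold change -0.31 ± 0.15 SE, adjusted p = 0.234, n = 3 per group, edgeR quasi-likelihood test with Benjamini-Hochberg adjustment). An exact two-sided permutation test gave p = 0.2, where 0.1 is the smallest that 3 against 3 allows. The directions below therefore belong to the libraries labelled si-GPD1L. Of the fibroblast markers, Col1a1, which encodes the main chain of type I collagen, had between 617004 and 918730 normalized counts per library, and Dcn, which encodes the matrix proteoglycan decorin, had between 2095 and 4765. Markers of cardiomyocytes and macrophages were also present, with Tnnt2 between 8801 and 12116 and Ptprc between 91.6 and 159.1 normalized counts. In these bulk libraries, fewer cells of a type and less RNA per cell cannot be told apart.

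All 10 endothelial genes were read in all 6 libraries, and 4 of the 9 tested were higher in the si-GPD1L group. These 4 were Plvap, Cdh5, Pecam1 and Tie1, with an adjusted p under 0.05, where 4.03% of the 14852 genes tested were called higher. No member was called lower, where 2.33% of all genes were. Plvap and Cdh5 also passed the second threshold, a log2 fold change over 1, which 1.48% of all genes passed in that direction. The log2 fold changes of the 9 members tested were all above 0 and ran from 0.12 for Flt1 to 1.44 for Plvap, with a median of 0.56, against a median of -0.0049 over all genes tested, of which 49.1% were above 0. Because the members were chosen with earlier results of these data known, these shares are a description and carry no test. Emcn was too low for the test, and each tested member had at least 13 counts in every library.

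**Figure D1:**
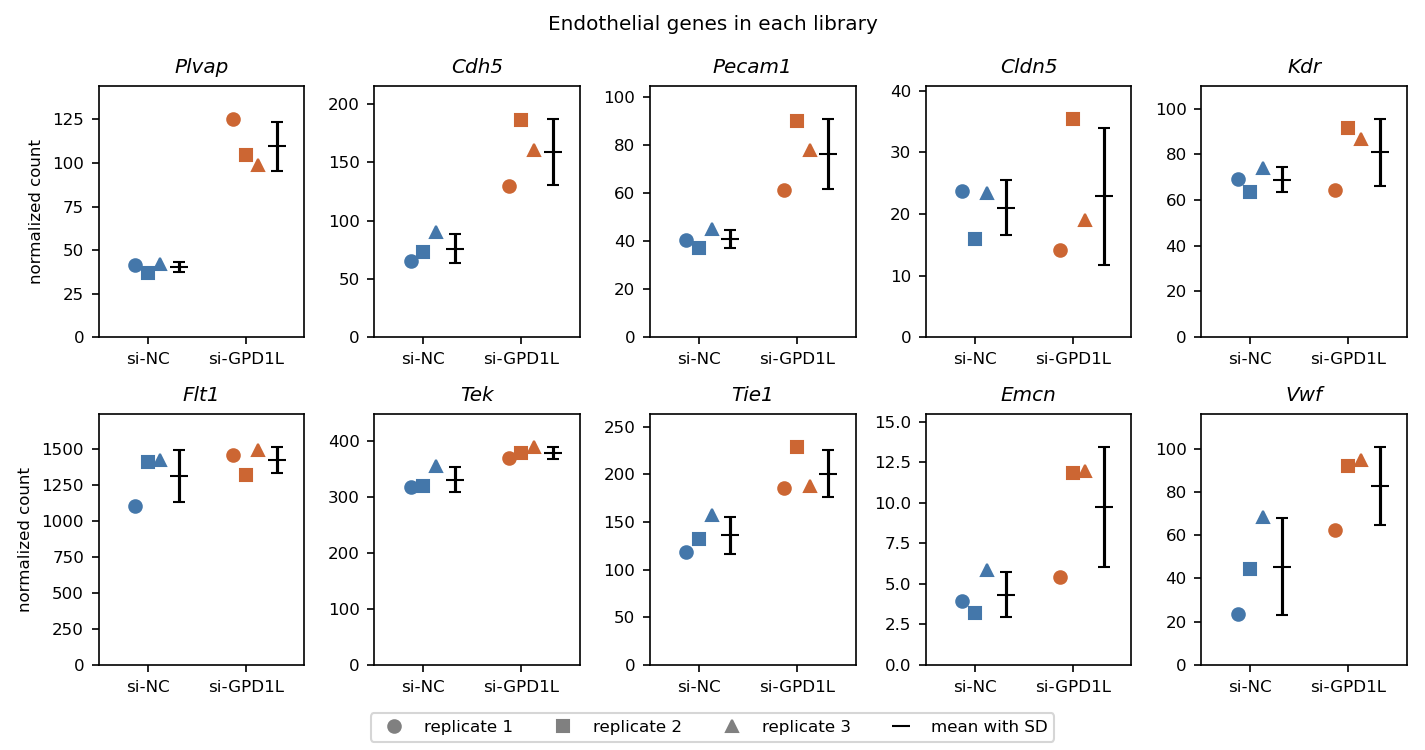
Normalized counts (vertical axes, each starting at 0) of the 10 endothelial genes in the 3 si-NC and the 3 si-GPD1L libraries, with the mean and SD of each group beside the points. The si-GPD1L points lie above all si-NC points for Plvap, Cdh5, Pecam1, Tek and Tie1, and the groups overlap for the other 5 genes.

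Plvap encodes the protein of the diaphragms that span caveolae and fenestrae of endothelial cells. The gene lies on rn6 chromosome 16, at chr16:19906354-19918668 on the minus strand. Its counts were 42, 35 and 43 in the si-NC replicates and 115, 115 and 99 in the si-GPD1L libraries, or 41.5, 37.0 and 42.0 against 125.4, 104.5 and 98.8 after scaling. Every si-GPD1L library lay far above every si-NC library, and the spread within a group was small beside the gap. From 40.2 ± 2.73 (SD, n = 3) to 109.6 ± 14.0 normalized counts (SD, n = 3), the fitted change was 2.71-fold (log2 1.44 ± 0.18 SE, 95% interval 1.04 to 1.84, adjusted p = 0.000351). Plvap was the only member whose interval lay wholly above a log2 fold change of 1.

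Among the junction genes, Cdh5 and Pecam1 rose and Cldn5 did not pass the test. Cdh5 encodes VE-cadherin, the adherens junction protein that defines the endothelial lineage, and lies at chr19:1025122-1074333 on the minus strand of rn6. Its normalized counts were 65.3, 73.0 and 89.8 in the si-NC group and 129.8, 186.3 and 160.7 in the si-GPD1L group. The lowest si-GPD1L library stood above the highest si-NC library, and si-GPD1L replicate 2 was the highest of the 6. The means were 76.0 ± 12.5 and 158.9 ± 28.3 (SD, n = 3), a 2.09-fold difference (log2 1.07 ± 0.18 SE, 95% interval 0.68 to 1.45, adjusted p = 0.00337). Without si-NC replicate 1 the log2 fold change of Cdh5 was 0.97, and without si-GPD1L replicate 2 it was 0.93, so that it no longer passed the threshold of 1.

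Pecam1, which encodes the adhesion protein CD31 of endothelial cell contacts, platelets and leukocytes, lies at chr10:94850971-94913202 on the minus strand. Its normalized counts were 40.5, 37.0 and 44.9 in the si-NC replicates and 61.1, 90.0 and 77.9 in the si-GPD1L libraries. The groups did not overlap, and si-GPD1L replicate 1 came closest to the si-NC values. The fitted change was 1.87-fold (log2 0.90 ± 0.21 SE, 95% interval 0.45 to 1.36, adjusted p = 0.0249). The call depended on single libraries, with an adjusted p of 0.0858 without si-NC replicate 2, and 0.152 and 0.0780 when si-GPD1L replicates 2 and 3 were left out in turn, and without si-GPD1L replicate 1 its log2 fold change was 1.03. Pecam1 and Cdh5 both peaked in si-GPD1L replicate 2, but Plvap peaked in replicate 1 of that group.

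Cldn5 encodes claudin-5, the tight junction protein of endothelial barriers, and is a short gene at chr11:86356292-86357718 on the minus strand. It had 24, 15 and 24 counts in the si-NC replicates and 13, 39 and 19 in the si-GPD1L libraries. Both the lowest and the highest value belonged to the si-GPD1L group, which therefore spanned the whole si-NC range. The log2 fold change was 0.14 ± 0.37 SE with a 95% interval from -0.66 to 0.94 (adjusted p = 0.867), an interval wide enough to hold the change of Pecam1 as well as a fall. Without si-GPD1L replicate 2 its log2 fold change was -0.34. With an interval this wide, the libraries could not show whether Cldn5 moved with its junction partners.

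Neither VEGF receptor passed the test. Flt1, VEGF receptor 1, lies at chr12:9033993-9205886 on the plus strand and was the most abundant member. It had 1100, 1406 and 1419 normalized counts in the si-NC replicates and 1456, 1315 and 1491 in the si-GPD1L libraries. The groups overlapped, and si-NC replicate 1 was the one library set apart from the rest. Its change was 0.12 ± 0.098 SE on the log2 scale (95% interval -0.095 to 0.33, adjusted p = 0.518), so a change of the size fitted for Plvap, Cdh5 or Pecam1 lay outside the interval of Flt1. Kdr, VEGF receptor 2 and the main signalling receptor for VEGF-A in endothelium, lies at chr14:34727677-34787127 on the plus strand. Its normalized counts were 69.2, 63.5 and 74.2 in the si-NC group and 64.3, 91.8 and 86.8 in the si-GPD1L group. Replicates 2 and 3 of the si-GPD1L group lay above the si-NC range and the other lay inside it. The log2 fold change of Kdr was 0.24 ± 0.19 SE (95% interval -0.17 to 0.64, adjusted p = 0.492).

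In the angiopoietin receptor system Tie1 rose, and Tek did not pass the test. Tie1, the orphan receptor that pairs with Tek, lies at chr5:137294544-137321116 on the minus strand. It had 118.6, 132.3 and 157.1 normalized counts in the si-NC replicates and 185.4, 229.1 and 187.7 in the si-GPD1L libraries. The groups did not overlap, and the means were 136 ± 19.5 and 200.7 ± 24.6 (SD, n = 3). The 1.48-fold difference (log2 0.56 ± 0.14 SE, 95% interval 0.25 to 0.88, adjusted p = 0.0395) was the smallest of the 4 calls. It was lost without si-NC replicate 2 (adjusted p = 0.109), si-GPD1L replicate 1 (0.0923), replicate 2 (0.211) or replicate 3 (0.0780). Tek, the receptor of the angiopoietins, lies on the same chromosome at chr5:113725717-113852799 on the plus strand. Its normalized counts were 316.4, 319.6 and 355.3 in the si-NC group and 368.6, 377.2 and 389.3 in the si-GPD1L group. The groups of Tek did not overlap either, but the gap between them was small, and the log2 fold change was 0.20 ± 0.093 SE (95% interval -0.0070 to 0.40, adjusted p = 0.241). Across all genes tested, 15.1% had a si-GPD1L group wholly above the si-NC group and 13.9% wholly below, against 5 members above and 0 below. The span of Tek overlaps that of Eqtn on the other strand, which had up to 164 counts in a library, and reads of the pair cannot be told apart if the counting ignored strand, a setting not given in the sources used here.

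Vwf and Emcn close the list. Vwf encodes von Willebrand factor, the clotting protein that endothelial cells store in Weibel-Palade bodies, and lies at chr4:158085059-158219525 on the plus strand. Its normalized counts were 23.7, 44.4 and 68.3 in the si-NC group and 62.2, 91.8 and 94.8 in the si-GPD1L group. Relative to their mean, the si-NC libraries differed among themselves more for Vwf than for any other member tested, and si-NC replicate 3 reached above the lowest si-GPD1L library. The log2 fold change was 0.87 ± 0.30 SE (95% interval 0.21 to 1.53) with an adjusted p of 0.115, although the point estimate was close to that of Pecam1. Without si-NC replicate 3 it was 1.29 with an adjusted p of 0.0199, and without si-NC replicate 1 it was 0.56 with an adjusted p of 0.160. Emcn, which encodes the surface sialomucin endomucin of capillary and venous endothelium, lies at chr2:242634319-242715489 on the plus strand. Only 4, 3 and 6 counts were found in the si-NC replicates and 5, 13 and 12 in the si-GPD1L libraries. Replicates 2 and 3 of the si-GPD1L group were above the si-NC range and the other was within it, and with the filter on low counts removed the adjusted p of Emcn was 0.390.

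**Figure D2:**
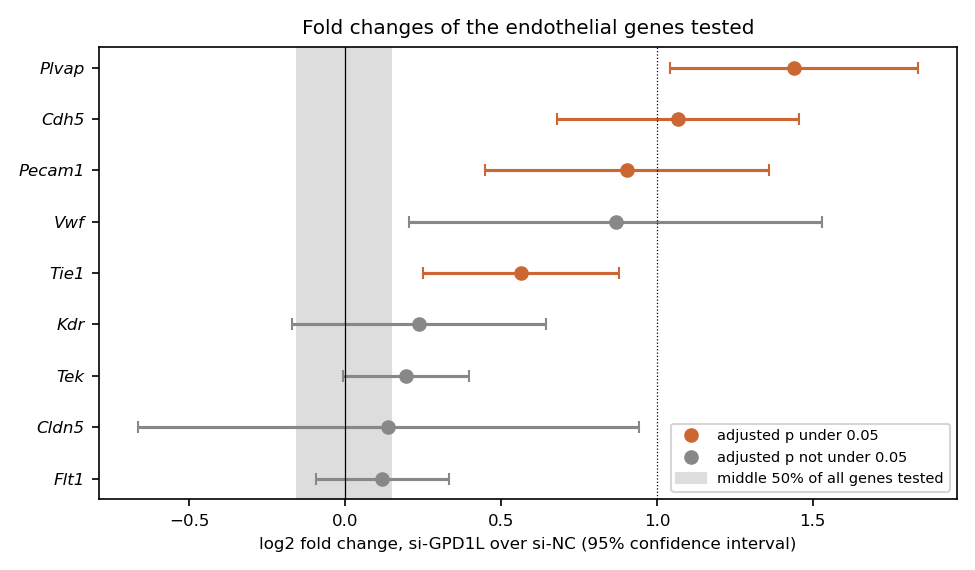
Log2 fold change of si-GPD1L over si-NC with its 95% confidence interval for the 9 endothelial genes tested, ordered by size. The grey band holds the middle 50% of all genes tested, from -0.15 to 0.15, the dotted line marks 1, and the orange points, Plvap, Cdh5, Pecam1 and Tie1, have an adjusted p under 0.05.

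The proportions of the endothelial genes to each other were compared within each library. Flt1 alone supplied 61.0% to 66.0% of the members' counts in the si-NC replicates and 51.9% to 58.9% in the si-GPD1L libraries. Without Flt1, the other members summed to between 703 and 861 normalized counts in the si-NC group and between 1016 and 1218 in the si-GPD1L group. Ratios of raw counts within a library do not depend on library scaling. Per count of Cdh5 there were between 15.8 and 19.3 counts of Flt1 in the si-NC group but between 7.06 and 11.2 in the si-GPD1L group. Tek showed the same order, with 3.96 to 4.85 counts per count of Cdh5 against 2.02 to 2.84. For Kdr the ratio to Cdh5 was 0.826 to 1.06 against 0.493 to 0.540. Pecam1 and Tie1, both called higher, were also lower per count of Cdh5, at 0.500 to 0.621 against 0.471 to 0.484 and at 1.75 to 1.82 against 1.17 to 1.43. Cldn5 had 0.217 to 0.364 against 0.109 to 0.190. The ratio of Tie1 to Tek went the other way, from between 0.375 and 0.442 to between 0.482 and 0.607. By contrast, the groups overlapped in the ratio of Plvap to Cdh5 (0.467 to 0.636 against 0.561 to 0.966) and in that of Vwf to Cdh5 (0.364 to 0.761 against 0.479 to 0.590). Of 10 ratios compared, 6 were wholly lower and 1 wholly higher in the si-GPD1L group, each with an exact two-sided permutation p of 0.1, the smallest that 3 against 3 allows, and 0.143 after Benjamini-Hochberg adjustment. The design cannot bring such a ratio under 0.05, so no ratio passed a test, and the 6 lower ratios share Cdh5 as their denominator, a gene called higher, and are not separate observations.

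Expressed per gene length, as deposited TPM, which divides counts by gene length and sets every library to the same sum, the members ranked from Flt1 at a mean of 15.6 over the 6 libraries down to Emcn at 0.336. Tek followed Flt1 at 9.84, then Cdh5 at 6.15, Tie1 at 5.75, Plvap at 5.14 and Pecam1 at 3.63, and the lower end was Cldn5 at 2.03, Kdr at 1.69 and Vwf at 0.951. The median gene tested had 14.7 TPM, so by its mean over the 6 libraries Flt1 alone lay above it and each of the others below. Flt1 was close to this median, with 14.5 ± 2.63 TPM in the si-NC group and 16.6 ± 1.04 in the si-GPD1L group (SD, n = 3). Some neighbours in this order were not separated by their spread. Cdh5 and Tie1 overlapped in both groups, as did Cldn5 and Kdr, while Tie1 and Plvap overlapped only in the si-GPD1L libraries and Plvap and Pecam1 only in the si-NC libraries. In the si-NC group Tie1 had the higher mean TPM of 4.50 ± 0.833 beside 3.84 ± 0.790 for Cdh5 (SD, n = 3), and in the si-GPD1L group Cdh5 had 8.47 ± 1.56 beside 7.0 ± 0.891 for Tie1. Plvap went from 2.64 ± 0.194 to 7.63 ± 0.931 TPM (SD, n = 3). The length used for Flt1 in the gene table is 11596 bases, above the 6848 bases of its longest listed transcript, and this lowers its TPM.

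**Figure D3:**
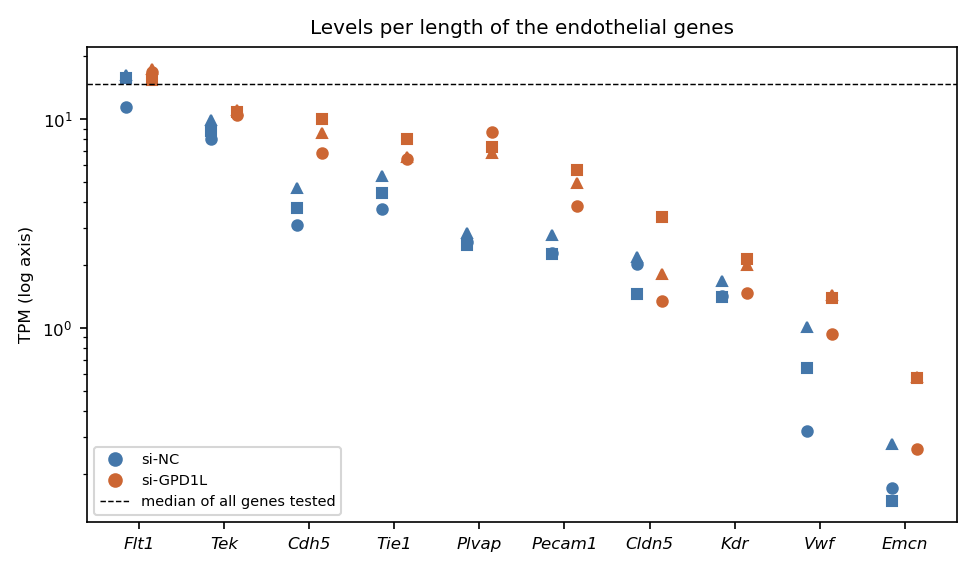
Deposited TPM (log axis) of the 10 endothelial genes in each library, ordered by their mean, with si-NC points in blue and si-GPD1L points in orange and the same marker shapes for replicates 1 to 3 (circle, square, triangle). The dashed line is the median of all genes tested at 14.7 TPM, and Flt1 is the one gene whose mean lies above it.

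Several members have more than 1 transcript in the deposited transcript table. For Flt1, a gene known to make a soluble form of the receptor besides the membrane form, 3 transcripts were listed. The transcript of 6848 bases had 797, 987 and 1068 counts in the si-NC replicates and 1039, 1072 and 1140 in the si-GPD1L libraries. The transcript of 3148 bases had 336, 496 and 477 against 423, 505 and 467. Both sets overlapped between the groups, as the gene as a whole did. The transcript counts of Flt1 summed to 13289 over the 6 libraries against 8172 for the gene, so reads entered more than 1 transcript and the counts do not measure the isoforms separately. The same held for Tie1, with 1952 against 1016, and for Tek, with 4076 against 2129. Plvap, Cdh5, Pecam1, Kdr and Cldn5 had a single transcript each.

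Promoter sequences from RefSeq on the rat build GRCr8, from 250 bases before to 50 bases after the gene start, were found for 6 of the 10 members, namely Plvap, Kdr, Flt1, Tie1, Cldn5 and Emcn. Those of Plvap, the member with the largest change, and Kdr, which did not pass the test, are shown for comparison, 5′ to 3′ on the strand of the gene, at chr16:18231230-18231529 on the minus strand and chr14:32571813-32572112 on the plus strand of GRCr8. Capitals mark the letters CAGGAA or CCGGAA on either strand (TTCCTG or TTCCGG when read on the other strand), forms of the core bound by ETS factors, the family to which the endothelial factor Erg belongs.
Plvap: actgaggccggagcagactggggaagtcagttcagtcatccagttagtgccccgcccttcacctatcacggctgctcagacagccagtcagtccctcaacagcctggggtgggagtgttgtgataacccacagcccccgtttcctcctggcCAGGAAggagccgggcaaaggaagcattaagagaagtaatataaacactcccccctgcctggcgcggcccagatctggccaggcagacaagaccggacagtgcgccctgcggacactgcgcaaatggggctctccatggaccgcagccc
Kdr: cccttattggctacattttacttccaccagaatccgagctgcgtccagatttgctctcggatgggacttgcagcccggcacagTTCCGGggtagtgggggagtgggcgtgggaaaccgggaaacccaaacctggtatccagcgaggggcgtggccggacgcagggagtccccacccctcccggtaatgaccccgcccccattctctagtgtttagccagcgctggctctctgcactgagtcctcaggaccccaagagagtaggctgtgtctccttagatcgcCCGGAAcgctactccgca
Plvap held 1 such match, at -99 from the gene start, and Kdr held 2, at -167 and 33. These letters occurred in 3 of the 6 member promoters, with Emcn as the third, against 40.0% of 33469 promoters of the same length. GGGTGG, a form of the letters bound by Krüppel-like factors such as Klf2 and Klf4, occurred on either strand in 4 of the 6 (Plvap, Kdr, Flt1 and Tie1) against 29.4% of all promoters, and Tie1 held 3 copies. TGTTTA, the core of forkhead factors, occurred in Plvap and Kdr against 13.7% of all promoters, and in Plvap its reverse form at -58 overlaps a TATAAA at -60. ATTGTT, a SOX core, occurred in Emcn, with 11.7% of all promoters holding it. AGATAA, which factors of the Gata family bind (11.6% of all promoters), and the interferon-stimulated element GAAANNGAAA (3.92%) occurred in none of the 6. The matches are descriptions of these windows and were not linked to the changes in expression.

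Other genes of endothelial biology were read in 6 lists, with 106 genes in all, of which 93 were tested. Of these, 12 were called higher and 3 lower, or 12.9% and 3.23%, beside 4.03% and 2.33% of all genes tested, and the median log2 fold change was 0.11, beside -0.0049. Many of these genes are also expressed by fibroblasts. The lists too were chosen with earlier results of these data known, so their shares carry no test. By list, the count of calls higher was 5 of 26 for other surface and signalling genes, 4 of 20 for transcription factors, 2 of 17 for junction partners, 1 of 11 for caveola and transport genes, and 0 of 12 for ligands and receptor partners and 0 of 7 for lymphatic and endocardial genes.

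Among the ligands and receptor partners of the VEGF and angiopoietin receptors, 2 of the 12 genes tested fell, and the list's median was -0.16. Figf, which encodes VEGF-D, had 2503, 2422 and 2370 normalized counts in the si-NC replicates and 984.6, 1317 and 1680 in the si-GPD1L libraries. Angpt2, the angiopoietin that can block Tek, had 148.3, 147.1 and 140.6 against 62.2, 80.9 and 89.8. In both genes the si-NC libraries lay close together and every si-GPD1L library lay below them. The log2 fold changes were -0.87 ± 0.14 SE for Figf (adjusted p = 0.00259) and -0.90 ± 0.16 SE for Angpt2 (adjusted p = 0.00540), opposite in sign to Tie1. Angpt1, the ligand that activates Tek, did not pass the test at -0.15 (adjusted p = 0.401), nor did Vegfa at -0.096 (0.477), Vegfc at -0.24 (0.0725) or Pgf, the placental growth factor that binds Flt1, at -0.16 (0.604). Of the 12 genes, 4 had an estimate above 0 and did not pass the test. They were Ptprb at 0.66 (0.116), Flt4 at 0.42 (0.123), Nrp2 at 0.25 (0.155) and Grb10 at 0.045 (0.750).

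Of the junction partners, Icam2 and Mcam rose, and the list's median was 0.095. Icam2, an adhesion protein of endothelial cells and platelets, went from 22.5 ± 2.41 to 45.9 ± 8.13 normalized counts (SD, n = 3), a log2 fold change of 1.02 ± 0.26 SE (adjusted p = 0.0370). Mcam, an adhesion protein of endothelium and pericytes, rose by 0.27 ± 0.074 SE (adjusted p = 0.0477), from a si-NC mean of 4153 normalized counts. Esam, an endothelial adhesion molecule, had 0.81 and did not pass the test (adjusted p = 0.0962). In the caveola and transport list Mfsd2a, the lipid transporter of brain endothelium, rose by 0.97 ± 0.24 SE (adjusted p = 0.0322). Cav1 and Cav2, which build the caveolae that the Plvap diaphragm spans, did not pass the test at -0.30 (adjusted p = 0.128) and -0.35 (0.157), so their estimates had the opposite sign to that of Plvap. The list's median was 0.057.

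Endothelial transcription factors had a median of 0.26. Erg, the ETS factor of endothelial identity, had 35.6, 56.1 and 45.9 normalized counts in the si-NC replicates and 106.9, 89.1 and 78.9 in the si-GPD1L libraries. All 3 si-GPD1L libraries lay above the si-NC libraries, and the log2 fold change was 1.00 ± 0.21 SE (adjusted p = 0.0152), close to that of Cdh5. Klf2, the flow-responsive factor, rose by 0.50 ± 0.082 SE (adjusted p = 0.00300), Klf4 by 0.39 ± 0.072 SE (0.00615) and Mecom by 0.35 ± 0.077 SE (0.0203). Nr2f2, the factor of venous identity, fell, with a log2 fold change of -0.36 ± 0.076 SE (adjusted p = 0.0143). The si-NC means of Klf2, Klf4, Mecom and Nr2f2 were 1082, 1551, 919.3 and 1192 normalized counts, beside 45.9 for Erg. The part of other cell types in these changes was not tested. Sox18 had 0.74 with an adjusted p of 0.282.

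Of the other surface and signalling genes, 5 of 26 rose, with a list median of 0.20. Nos3, the endothelial nitric oxide synthase, had 68.2, 60.3 and 70.3 normalized counts in the si-NC replicates and 136.3, 120.9 and 124.8 in the si-GPD1L libraries. Neither group's range came near the other, and the change was 0.94 ± 0.15 SE on the log2 scale (adjusted p = 0.00297). Heg1, a receptor that supports cardiovascular junctions, rose by 0.78 ± 0.12 SE (adjusted p = 0.00215), and Cd34, a sialomucin of endothelium and of stromal progenitors, by 0.61 ± 0.12 SE (0.00901). The si-NC means of Heg1 and Cd34 were 5013 and 961.4 normalized counts. Selp, the P-selectin of Weibel-Palade bodies and platelets, rose by 1.32 ± 0.33 SE from low counts (adjusted p = 0.0357), and Rasip1, a regulator of vascular tube formation, by 0.81 ± 0.22 SE (0.0475). Estimates were above 0 for 20 of the 26. Those below 0 did not pass the test, among them Clec14a at -0.32 (adjusted p = 0.0520), S1pr1 at -0.34 (0.290) and Calcrl at -0.21 (0.312). Every si-GPD1L library lay below the si-NC libraries for Clec14a. Dll4, the Notch ligand of arterial endothelium, and Aplnr, the apelin receptor, were too low to test, with 3.98 ± 1.87 and 2.97 ± 1.66 normalized counts in the si-NC group and 13.4 ± 5.14 and 16.4 ± 9.31 in the si-GPD1L group (SD, n = 3). Robo4 and Sele of this list were not tested either. Lymphatic and endocardial genes had no call among 7 tested and a median of 0.28, with the smallest adjusted p for Hapln1 at 0.245, Tmem100 at 0.319 and Npr3 at 0.338.

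Of these 15 calls, 6 had an adjusted p under 0.05 without each library in turn, namely Klf2, Klf4, Heg1, Nos3, Figf and Angpt2. Cd34 lost its call without si-GPD1L replicate 3 (0.0552), and Erg without si-GPD1L replicate 1 (0.0923) or 2 (0.0669). Nr2f2 lost its call without the same 2 libraries (0.0968 and 0.115), and Mecom without these (0.127 and 0.131) or si-NC replicate 2 (0.0506). Icam2, Mcam, Mfsd2a, Selp and Rasip1 depended on 4 or 5 of the 6 libraries. Icam2, Selp and Rasip1 passed only without si-NC replicate 3 (0.0452, 0.0149 and 0.0214), Mcam only without si-NC replicate 1 (0.00604), and Mfsd2a only without si-NC replicate 1 (0.00116) or si-GPD1L replicate 2 (0.0370). In the other fits their adjusted p ran up to 0.167 for Icam2, 0.236 for Mcam and 0.157 for Mfsd2a, each without si-GPD1L replicate 1, and to 0.185 for Selp and for Rasip1 without si-GPD1L replicate 2.

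**Figure D4:**
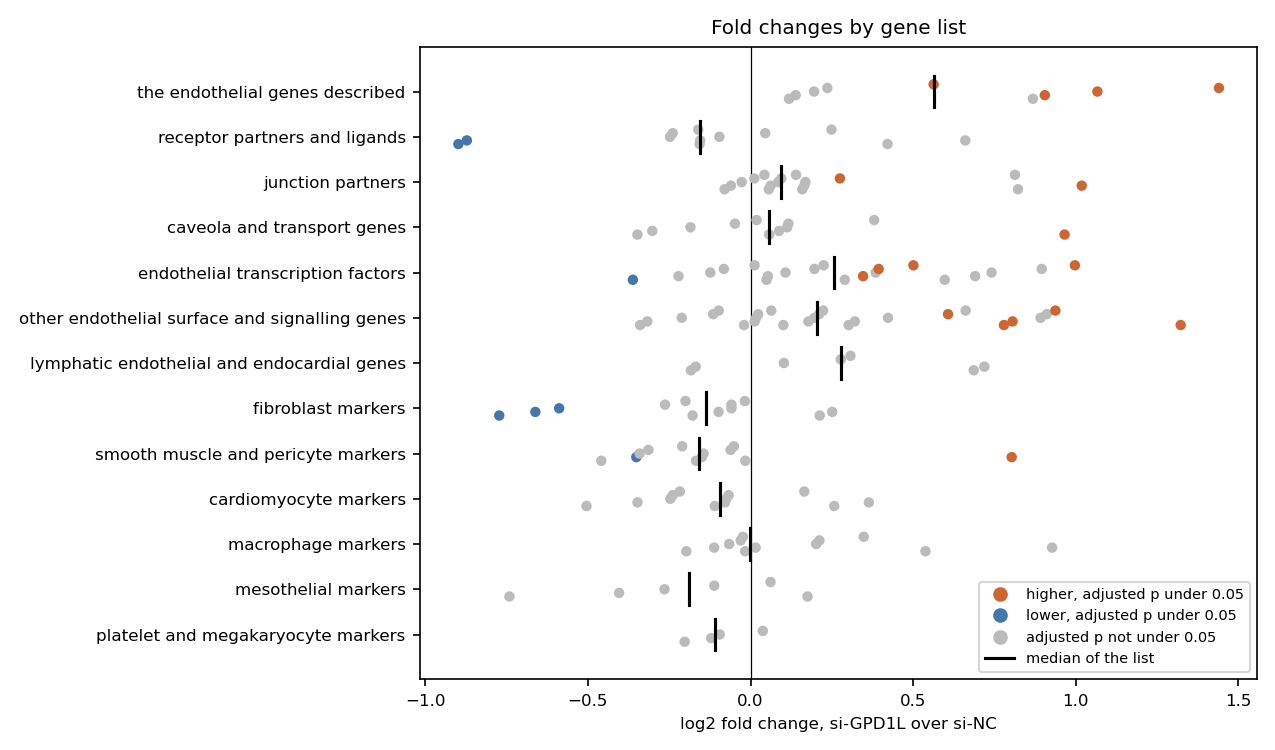
Log2 fold change of si-GPD1L over si-NC for each tested gene of the 10 endothelial genes described, the 6 endothelial lists and the 6 lists of other cell types, with a black bar at each list's median. The medians are 0.56 for the genes described and between -0.19 and 0.28 for the lists.

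Markers of other cell types were read beside these genes. Of 12 fibroblast markers, 3 fell and 0 rose. They were Lum (-0.77 ± 0.14 SE, adjusted p = 0.00580), Dcn (-0.66 ± 0.14 SE, 0.0129) and Fbln1 (-0.59 ± 0.13 SE, 0.0172), all of them matrix proteins, and the summed level of the list was 1289280 to 1593210 normalized counts in the si-NC group and 1490100 to 1582080 in the si-GPD1L group. Most of that sum was Col1a1 and Col3a1, with means of 762835 and 548766 normalized counts in the si-NC group. Their estimates had opposite signs, at 0.25 (adjusted p = 0.219) and -0.26 (0.156). Of 12 smooth muscle and pericyte markers, Cspg4, the NG2 proteoglycan of pericytes, rose (0.80 ± 0.12 SE, adjusted p = 0.00130) and Des, encoding the intermediate filament desmin, fell (-0.35 ± 0.084 SE, 0.0282), with the list's sum at 125823 to 129871 against 114338 to 118745. Cspg4 was the only 1 of the 12 with an estimate above 0. Acta2 had -0.14 (0.290), Lmod1 had -0.31 (0.0511) and Myh11 had -0.34 (0.0813). Abcc9 of the same list had -0.46 (0.0531), Kcnj8 -0.21 (0.603), Notch3 -0.15 (0.444), Pdgfrb -0.061 (0.774) and Rgs5 -0.051 (0.938). Dcn, Fbln1 and Des lost their calls without si-GPD1L replicate 1 (0.0564, 0.0923 and 0.0984) or replicate 2 (0.0842, 0.0991 and 0.167), and Fbln1 and Des also without si-NC replicate 2 (0.0637 and 0.0750). The part of the fibroblast and mural cell markers in the endothelial result was not tested.

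No marker of the remaining cell types passed the test. The 12 cardiomyocyte markers summed to 35394 to 37058 normalized counts in the si-NC group and 32091 to 34930 in the si-GPD1L group, with Tnnt2 at -0.25 (adjusted p = 0.103), Myl4 at -0.35 (0.105) and Sln at -0.50 (0.117). Estimates were above 0 for 3 of the 12, namely Ttn at 0.36 (0.214), Ryr2 at 0.26 (0.305) and Actn2 at 0.17 (0.221). The cardiomyocyte sums of the si-GPD1L libraries all lay below those of the si-NC libraries, as did the smooth muscle and pericyte sums, and the part of the cardiomyocyte markers in the endothelial result was not tested. The 12 macrophage markers, which bear on Pecam1 because leukocytes express it, summed to 3010 to 3270 against 2580 to 3752, with Ptprc at -0.20 (0.600), Lyz2 at -0.023 (0.930) and Cd163 at 0.93 (0.0908). Platelet and megakaryocyte markers bear on Pecam1, Vwf, Icam2 and Selp, and their sum was 281.8 to 363 against 298.8 to 326.4. Itga2b, the defining integrin of platelets, had -0.095 (0.906), and Gp1bb, the largest part of that sum, had 0.038 (0.933). The 8 mesothelial markers summed to 751.3 to 848.2 against 729.9 to 771.6, with Wt1 at 0.061 (0.729), Msln at -0.40 (0.203) and Upk3b at -0.74 (0.229). The summed levels of the macrophage and platelet lists overlapped between the groups, although Cd163 was higher in every si-GPD1L library than in any si-NC library, and their part in the changes of Pecam1, Vwf, Icam2 and Selp was not tested.

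Outside the lists, the genes most like the members were sought by the profile over the 6 libraries. The mean of the log2 levels of the 9 members tested, each centred on its own mean, was -0.44, -0.37 and -0.093 in the si-NC replicates and 0.11, 0.48 and 0.32 in the si-GPD1L libraries, so the nearest libraries across the groups were si-NC replicate 3 and si-GPD1L replicate 1. Among 11031 genes averaging 50 normalized counts or more, the smallest root mean square difference from this profile belonged to Flt3lg at 0.0657 on the log2 scale. Mlkl at 0.10, Tdrd7 at 0.102, Atp10d at 0.105 and Proca1 at 0.107 followed. Flt3lg, which encodes a blood cell growth factor, went from 54.2 to 89.3 normalized counts. Chosen for their likeness over the same libraries, these genes are a description and carry no test.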

How the data were processed

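The data were mRNA-seq of rat atrial fibroblasts (150 bp paired-end Illumina reads per the study's methods), with 3 si-NC and 3 si-GPD1L libraries grouped by their labels. The authors deposited raw counts and TPM for 40154 genes and 55760 transcripts, and the submitters' processing notes name bcl2fastq, HISAT2 2.1.0, HTSeq 0.12.4 and rn6, without the strand setting. The deposited fold changes, p-values and q-values and the GO and KEGG terms are the authors' own comparison and were not used.

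Deposited gene counts were filtered by filterByExpr, leaving 14852 genes, scaled by TMM and tested with the quasi-likelihood F test of edgeR 4.0.16 in R 4.3.3, with Benjamini-Hochberg adjustment over all genes tested and a threshold of 0.05. The study's second threshold, an absolute log2 fold change over 1, is given beside it. Standard errors were taken as the log2 fold change divided by the square root of F, and intervals are 95%. Deposited TPM was used only to compare levels between genes and was not tested. Centred profiles used a pseudocount of 1. Ratios and Gpd1l were compared by exact permutation with scipy 1.17.1, and figures were drawn with matplotlib 3.10.9. On simulated data made from these counts, 200 of 200 changed genes were recovered among 14846 tested, and 9 unchanged genes were called. The changed genes were drawn only from those above a minimum mean count, with log2 fold changes of at least 1 in size. Every simulated gene had the same dispersion, the spread between libraries beyond counting error, so genes with a larger spread were not represented. Recovery was not measured separately at the low counts and small fold changes of many members. It therefore does not show whether changes of that size would be found, and does not bear on the members that did not pass.

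Library totals of 16892255 to 20149732 left 7 of the members under 100 counts in every si-NC library, where counting error is a large part of the spread. The members and lists were chosen with earlier results of these data known. Of 179 listed genes, 174 matched by symbol, 2 by synonym (Vegfd as Figf, Cavin3 as Prkcdbp), and Cavin1, Cavin2 and Gp5 had no match. The genes named were the 10 members, 8 ligands, receptors and factors fixed by name (Vegfa, Vegfc, Pgf, Angpt1, Angpt2, Erg, Sox18 and Cav1), the 3 genes of each endothelial list with the smallest adjusted p, the most abundant gene and the defining marker of each other cell type, the 5 genes nearest in profile, and Gpd1l. All other list genes named, Dll4 and Aplnr among them, and Eqtn were named after their values were seen. Alternatives were DESeq2 size factors, upper-quartile scaling, the DESeq2 1.42.0 Wald test, the edgeR exact test, no filter beyond 1 count, at least 10 counts in every library, the replicate number as a block, transcript counts summed per gene, and each library left out.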

Additional observations from a re-analysis of the deposited data

How the results depend on the processing

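Plvap and Cdh5 had an adjusted p under 0.05 in 14 of 14 alternatives, Pecam1 in 10 (0.00128 to 0.152), Tie1 in 9 (0.00272 to 0.211) and Vwf in 3 of 14. With transcript counts summed per gene, 2 members were called higher, since Pecam1 (adjusted p = 0.0697) and Tie1 (0.0647) lost their calls. Of the 13819 genes tested in that fit, 425 were called higher and 198 lower, beside 599 and 346 of 14852 in the main fit. Without each library in turn, between 2 and 5 members were called higher, 1 to 3 passed both thresholds, and 5 to 16 genes of the 6 endothelial lists were called higher and 2 to 6 lower, while over all genes 299 to 861 were called higher and 53 to 670 lower. In these fits the log2 fold change of Cldn5 ran from -0.34 to 0.37, of Itga2b from -0.39 to 0.14, of Lyz2 from -0.19 to 0.085 and of Gp1bb from -0.16 to 0.30. With no filter beyond 1 count, 20 list genes were called higher and 6 lower, over all genes 1055 higher and 874 lower, and Vwf passed (0.00140). The edgeR exact test called 873 genes higher and 655 lower over all genes. The cause of these moves was not tested. The fits without a library had fewer libraries, and several fits tested another set of genes.

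Samples with the same replicate number did not deviate together (correlations 0.0403, -0.00404 and 0.0472 over 11887 genes), which gave no sign of pairing by number. Such correlations cannot exclude a pairing, and the labels do not say whether equal numbers share an origin. With the replicate number as a block, 5 members were called higher, Vwf among them (0.0369), and 9 in place of 12 genes of the 6 endothelial lists, where Icam2 (0.0561), Mcam (0.0599) and Rasip1 (0.0600) lost their calls, with 560 genes higher and 361 lower over all genes.

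The limits are the low counts of most members, 3 libraries a group whose separate origin is not stated, a targeted gene that did not pass its own test, and a bulk measurement in which the number of endothelial cells and their RNA content cannot be told apart.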
